A study of Mus musculus with 18 samples.

Results

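Quadriceps muscle of obese mice given prednisone once a week was compared with quadriceps of obese mice given it every day, across all genes expressed in the muscle. The comparison used 6 of the 18 libraries of the series, 3 weekly and 3 daily, and 3 vehicle libraries of the same muscle entered the fit and are shown for orientation. A gene was kept when its summed transcripts reached at least 1 TPM in at least 3 of the 9 muscle libraries, which 12246 of 33641 gene symbols did. TPM, the unit of the table, is a relative transcript abundance that is already divided by transcript length and scaled to a fixed sum in each library.

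All mice were male DBA/2J, an inbred wild-type strain with no transgene, and all had become obese on a high-fat diet that was kept up during treatment. The weekly group received prednisone at 1 mg/kg by intraperitoneal injection once a week for 12 weeks. The daily group received the same dose by the same route every day for 12 weeks, and so a larger total amount. The vehicle group is labelled as injected daily for 12 weeks. Mice had eaten the diet for 12 weeks when injections began, at an age of about 20 weeks, and muscle was collected 24 hours after the final dose. The labels do not say what the weekly mice received on the other days.

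Prednisone is a synthetic glucocorticoid that acts through the glucocorticoid receptor, a hormone-activated transcription factor. In muscle, glucocorticoids are known to induce ubiquitin ligases and metabolic enzymes and, with daily use, to cause wasting. When a muscle fibre is damaged, satellite cells proliferate, switch on the transcription factor myogenin and fuse, and the new fibres pass through an embryonic programme of contractile proteins and fetal acetylcholine receptors while macrophages and matrix-producing cells gather around them. Resting fibres instead burn fatty acids through mitochondrial oxidation and the tricarboxylic acid cycle.

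The 9 libraries were alike in the number of genes at 1 TPM or more, 11781 to 12200, and in the share of TPM from the mitochondrial genome, 27.5% to 31.3%. TPM keeps no read counts, so depth and counting error are unknown, and all errors below are the spread between libraries. In each regimen the third library lay between the others more often than an equal share of 33.3%. Among 3340 genes with a mean of 20 TPM or more it held the middle value for 50.9% in weekly, 58.6% in daily and 43.6% in vehicle muscle. Nothing in the labels says that the libraries of a group came from separate mice, so p-values measure only the spread between these libraries. Whether the third libraries are independent of the others was not tested. If they are not, the p-values below are too small, and the fit without them, which leaves 2 libraries a group, is given beside the main results. The tissue label matched the data, since the 12 markers of skeletal muscle summed to 50300 to 54200 TPM in weekly, 53300 to 54900 TPM in daily and 56500 to 61000 TPM in vehicle muscle. Adipocyte markers, 13 of 15 above the filter, were also present and varied most among the daily libraries, at 1990 to 2500 TPM in weekly, 1100 to 2900 TPM in daily and 2310 to 2960 TPM in vehicle muscle. Endothelial markers summed to 1310 to 1570 TPM in weekly, 934 to 1760 TPM in daily and 1430 to 1700 TPM in vehicle muscle. Both sums were highest in daily 1 and lowest in daily 2 among the daily libraries. Erythrocyte genes summed to 1540 to 3400 TPM in weekly, 1750 to 1870 TPM in daily and 1840 to 2060 TPM in vehicle muscle.

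The regimens differed at 217 genes, 112 higher and 105 lower after weekly prednisone (limma, adjusted p under 0.05), which is 1.77% of the genes tested, 0.915% in the higher and 0.857% in the lower direction. The lower genes moved further: their median log2 difference was -0.90 and 46 of 105 differed by more than 1, whereas the higher genes had a median of 0.35 and 3 of 112 differed by more than 1. The sets also differed in level, with a median of 6.61 TPM for the lower and 32.6 TPM for the higher genes. Part of the lower set passed the filter only through the daily libraries, as given below, so the sizes are not compared like with like. The median over all genes was 0.03. With TMM scaling, which brings most genes to a common level, 73 genes were higher, 0.596% of those tested, and 130 were lower, 1.06%, so the balance between the directions depends on the scaling. It also depends on the filter, since at 5 TPM 139 genes were higher and 71 lower. Of the 105 lower genes, 26 reached the expression filter only through the daily libraries, having fewer than 3 of the other 6 libraries at 1 TPM, so lower was the direction open to them. Among all genes tested 305 passed in that way. Of the 112 higher genes, 2, Cyp26b1 and Rps13-ps1, passed only through the weekly libraries, as did 212 of all genes tested. In all 217 genes the 3 weekly and the 3 daily values did not overlap, against 23.3% of all genes tested. This nearly follows from calling the genes on the same values, so it is no further support. The vehicle mean lay nearer to the weekly than to the daily mean in 197 of the 217 genes (90.8%), against 64.2% of all genes tested. This is partly built in for the 26 genes that passed only through the daily libraries, whose weekly and vehicle values were mostly under 1 TPM. The call also picks genes with weekly and daily means apart, so the shares are not of like sets. For 122 genes (56.2%, against 20.5% of all genes tested) the vehicle values overlapped the weekly and not the daily ones. For 16 (7.37%, against 9.73%) they overlapped the daily and not the weekly ones. These shares are not of like sets either.

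**Figure D1:**
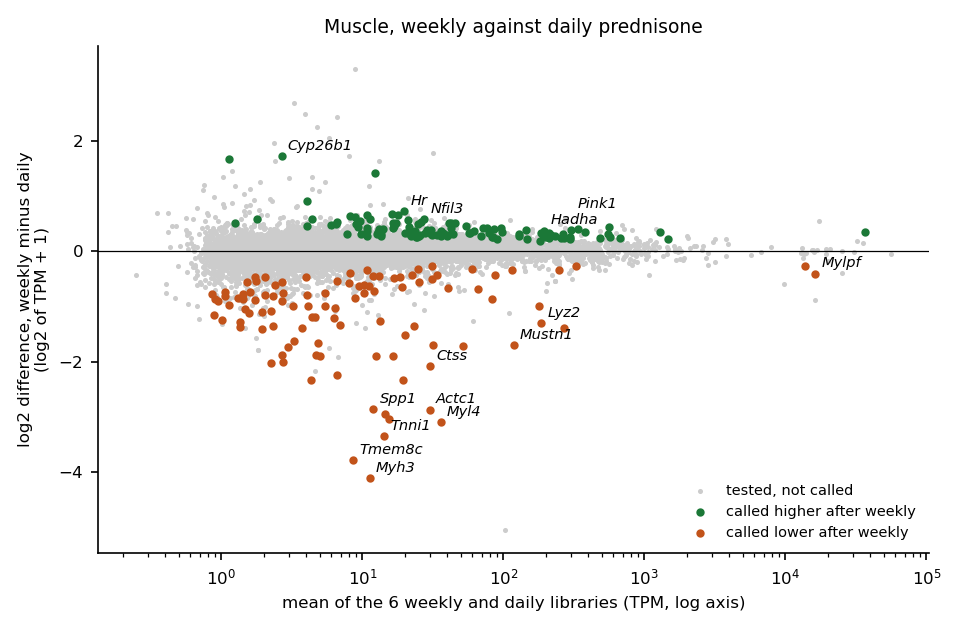
Log2 difference between weekly and daily prednisone (vertical axis, log2 of TPM plus 1, weekly minus daily) against the mean TPM of the 6 libraries (horizontal, log axis), 1 point per gene. Green points are the 112 genes called higher after weekly and orange points the 105 called lower; the orange points reach -4.11, the green ones 1.72.

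The number of calls ranged from 37 without daily 3 to 282 without daily 2, and was 53 without weekly 3, 64 without weekly 1, 99 without weekly 2, 125 without daily 1 and 120 to 173 without a vehicle library. In 36 of the 217 genes, 7 higher and 29 lower, the call held without each single library in turn. Among the lower ones Myh3, Myh8, Tmem8c, Gm7325, Chrng, C1qtnf3, Dclk1, Cd300c2 and A930003A15Rik passed the filter only through the daily libraries. Among the higher ones Cyp26b1 and Rps13-ps1 passed only through the weekly libraries. The same genes were kept in each of these fits, so for these members the direction stayed fixed by the filter. This applies to Myh3 and Tmem8c in the next fit too. Without the third library of every regimen 10 genes were called, 1 higher and 9 lower, and 8 of them were among the 217: Myh3, Tmem8c, Tnni1, Tnnc1, Tnnt2, Actc1, Spp1 and Myog. The other 2, Rps12l1 and Gm7079, a ribosomal gene copy and a predicted gene, were not called with all libraries and are uncertain where reads are shared between copies. Every other gene described below as called was therefore not called without the third libraries, also where its call held without each single library. In that smaller fit 934 genes had an unadjusted p under 0.05. Among the 105 lower genes, daily 1 held the highest daily value in 90 (85.7%, against 52.9% of all genes tested) and daily 3 the middle one in 88 (83.8%, against 52.3%).

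**Figure D2:**
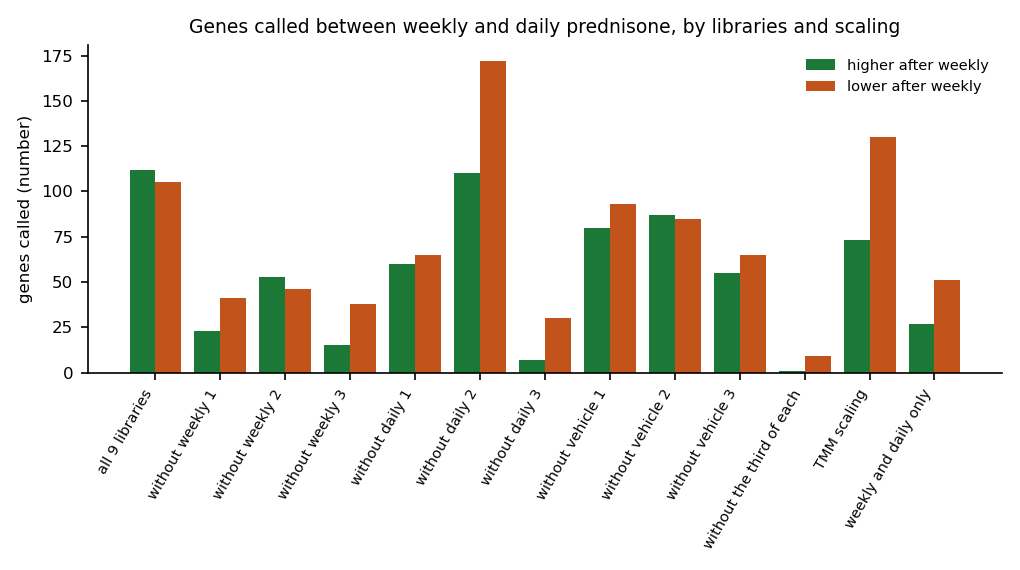
Number of genes called (vertical axis) with all 9 libraries, without each single library, without the third of each regimen, with TMM scaling and with the weekly and daily libraries alone. Green bars count genes higher and orange bars genes lower after weekly prednisone; the count was lowest without the third libraries, 1 and 9.

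Many of the genes that differed most belong to the programme of embryonic and regenerating fibres, but whether new fibres had formed was not tested. The regions upstream of 3 of them, and of 2 acetylcholine receptor genes that were also lower, are shown because genes of this programme are known targets of MyoD family factors, which bind the E-box letters CANNTG, marked here in capitals. Each stretch is the 250 bases before a RefSeq start in GRCm38.p6, written 5′ to 3′ on the strand of the gene. Myog is chr1:134289754-134290003 on the plus strand, Chrna1 chr2:73580339-73580588 on the minus strand, Chrng chr1:87205561-87205810 on the plus strand, Tnnt2 chr1:135836084-135836333 on the plus strand and Myh3 chr11:67078050-67078299 on the plus strand.
Myog: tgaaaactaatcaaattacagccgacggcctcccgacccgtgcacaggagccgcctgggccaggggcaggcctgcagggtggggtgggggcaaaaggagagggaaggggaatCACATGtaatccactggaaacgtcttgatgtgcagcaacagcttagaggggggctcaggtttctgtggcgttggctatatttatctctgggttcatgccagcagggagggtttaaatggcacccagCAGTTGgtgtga
Chrna1: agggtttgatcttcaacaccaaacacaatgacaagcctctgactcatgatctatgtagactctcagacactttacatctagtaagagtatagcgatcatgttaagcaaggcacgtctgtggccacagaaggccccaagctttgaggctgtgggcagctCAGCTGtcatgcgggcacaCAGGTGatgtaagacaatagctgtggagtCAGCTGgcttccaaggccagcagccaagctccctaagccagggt
Chrng: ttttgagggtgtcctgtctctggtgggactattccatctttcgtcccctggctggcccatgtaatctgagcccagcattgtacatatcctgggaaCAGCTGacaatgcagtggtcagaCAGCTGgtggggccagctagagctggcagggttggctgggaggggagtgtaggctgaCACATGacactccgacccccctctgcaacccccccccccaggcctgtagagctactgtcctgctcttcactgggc
Tnnt2: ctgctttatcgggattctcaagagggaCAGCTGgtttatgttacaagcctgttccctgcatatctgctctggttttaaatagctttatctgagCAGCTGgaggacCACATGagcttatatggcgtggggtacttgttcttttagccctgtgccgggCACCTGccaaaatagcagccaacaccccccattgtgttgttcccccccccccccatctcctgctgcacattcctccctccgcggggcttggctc
Myh3: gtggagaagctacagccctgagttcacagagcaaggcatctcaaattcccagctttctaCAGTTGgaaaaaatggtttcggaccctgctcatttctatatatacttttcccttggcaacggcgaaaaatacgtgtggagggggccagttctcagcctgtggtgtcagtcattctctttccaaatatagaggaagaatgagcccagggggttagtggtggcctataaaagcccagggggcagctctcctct
Myog held 2 such words, Chrna1 3, Chrng 3, Tnnt2 4 and Myh3 1. Tnnt2 has another RefSeq start, whose stretch (chr1:135836739-135836988, not printed) held 1. The 5 were picked with these words in view, and the stretches of Actc1 and Myl4, among the genes that differed most, held 0. The word CANNTG, which reads the same class of letters on both strands, occurs in 66.2% of the 32817 RefSeq stretches of this length, and the narrower CAGCTG in 13%. Of the 8 called embryonic sarcomere genes described next, 6 held CANNTG (75%) and 2 held CAGCTG (25%). CAGCTG occurred 2 times each in the stretches of Chrna1, Chrng and Tnnt2 as printed, and was not found in those of Myog and Myh3 or in the other stretch of Tnnt2. These matches describe letters in a window and are not evidence of binding.

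Contractile genes of embryonic and perinatal fibres were lower after weekly prednisone. Of the 12 listed genes 8 were called lower (66.7%, against 0.857% of all genes tested) and 0 higher. All 12 had a negative difference, and their median log2 difference was -2.30. Of the 8, Myh3 and Myh8 passed the expression filter only through the daily libraries, and the other 10 tested members had 6 lower calls and a median of -2.07. Myh3, embryonic myosin heavy chain (chr11:67078300-67102291, GRCm38), had 0.287, 0.335 and 0.304 TPM in the weekly libraries and 29.5, 16.6 and 20.5 TPM in the daily ones. Vehicle muscle had 0.147, 1.16 and 0.664 TPM, so every daily library stood far above every weekly and vehicle library. The log2 difference of Myh3 was -4.11 ± 0.24 (SE, limma adjusted p = 0.000105), the largest of any called gene. Tnni1, slow troponin I, which developing fibres also make, had 1.67, 1.52 and 1.78 TPM after weekly and 33.8, 20.1 and 26.4 TPM after daily dosing, a log2 difference of -3.36 ± 0.18 (adjusted p = 0.000105). Myl4, the embryonic and atrial light chain, had 5.97, 7.04 and 6.69 TPM after weekly and 84.1, 50.8 and 61.0 TPM after daily dosing (log2 -3.10 ± 0.30, adjusted p = 0.00183). Groups did not overlap for either gene, and the vehicle values, 1.99 to 3.29 TPM for Tnni1 and 4.85 to 14.1 TPM for Myl4, lay under every daily value.

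Tnnc1, Tnnt2 and Actc1, the cardiac and slow troponin C, cardiac troponin T and cardiac actin that immature skeletal fibres express, followed. Tnnc1 averaged 2.47 ± 0.0572 TPM after weekly and 28.5 ± 9.07 TPM after daily dosing (SD, n = 3 each), a log2 difference of -3.04. Tnnt2 averaged 2.50 ± 0.218 TPM after weekly and 26.4 ± 6.17 TPM after daily dosing, a log2 difference of -2.95. For Actc1 the weekly libraries held 6.58, 5.84 and 6.49 TPM, the daily ones 71.4, 39.0 and 51.4 TPM and the vehicle ones 11.2, 13.3 and 13.0 TPM, with a log2 difference of -2.87 (adjusted p = 0.000105). Actc1 is a gene for which weekly muscle was also under vehicle in each library. Myh8, perinatal myosin, had 0.818, 0.867 and 0.749 TPM after weekly and 6.44, 4.08 and 4.71 TPM after daily dosing (log2 -1.73, adjusted p = 0.00199). Myosin heavy chain genes are near-copies of each other, so reads may be divided among them with error.

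The remaining called member, Myl6b, differed by -0.72 (adjusted p = 0.0381), and its call was lost without daily 1, daily 3, vehicle 3 or any weekly library (up to 0.136 without weekly 3). Csrp3, a stress-responsive Z-disc protein (log2 -1.26, adjusted p = 0.0959), Ankrd1 (log2 -0.98, adjusted p = 0.134), Acta2 (log2 -0.60, adjusted p = 0.0791) and Myh10 (log2 -0.03, adjusted p = 0.943) were not called. With 1 library left out 7 to 10 members were called lower, and 5 without the third libraries. The summed level of the 12 genes was 103 to 112 TPM in weekly, 317 to 499 TPM in daily and 94.1 to 175 TPM in vehicle muscle. In whole muscle, fewer cells or fibres of a kind and less RNA in each of them cannot be told apart.

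**Figure D3:**
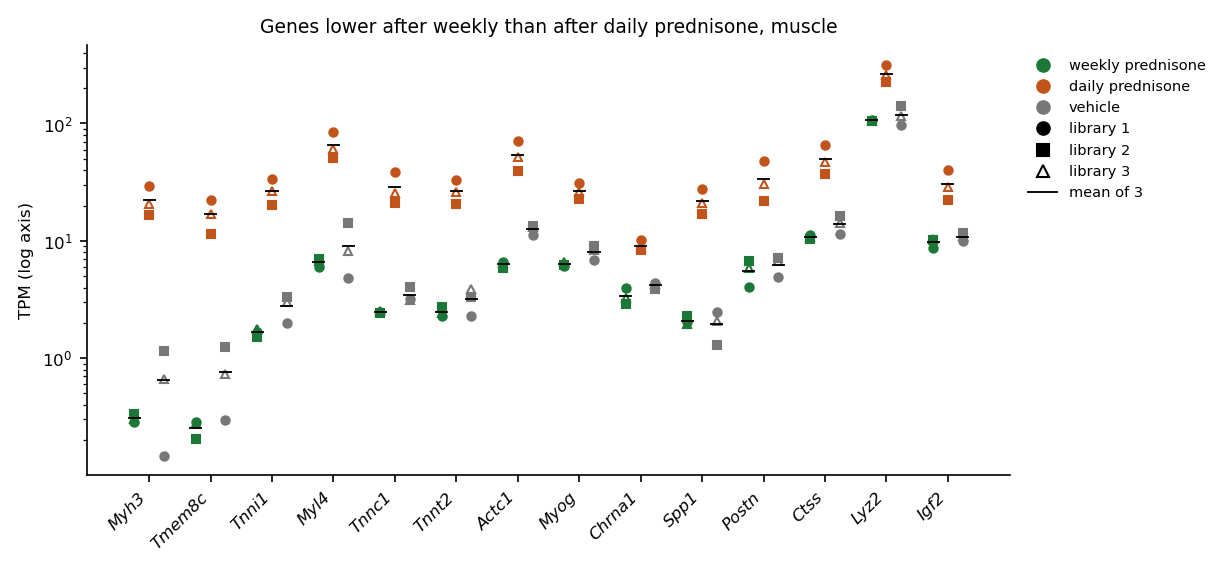
TPM (vertical, log axis) of 14 genes lower after weekly prednisone in each library, weekly at left in green, daily in orange and vehicle in grey, with bars at the mean of 3 and a symbol for each library number. In all 14 genes the daily points lie above the weekly and vehicle points, and daily 1 is the highest of the daily libraries.

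Of 16 tested members of the list of myogenic and fusion genes, 3 were called lower (18.8%, against 0.857% of all genes tested) and 0 higher. The median log2 difference was -0.26. Of the 3, Tmem8c and Gm7325 passed the filter only through the daily libraries, so that their direction was fixed by the filter, and 1 call, Myog, remained among the other 13 members, with a median of -0.13. Tmem8c, myomaker, a membrane protein needed for myoblasts to fuse (chr2:27061636-27072179), had 0.285, 0.204 and 0.279 TPM after weekly, 22.1, 11.4 and 16.9 TPM after daily dosing and 0.299, 1.25 and 0.727 TPM after vehicle. Its log2 difference was -3.78 ± 0.24 (adjusted p = 0.000105). Gm7325, the symbol the table uses for its fusion partner myomixer, had 1.76, 0.232 and 0.600 TPM after weekly and 7.58, 7.46 and 8.45 TPM after daily dosing (log2 -2.33 ± 0.26, adjusted p = 0.00354). Each daily library held more of both transcripts than any weekly or vehicle library.

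Myog, myogenin, the transcription factor of terminal differentiation, had 6.14, 6.26 and 6.63 TPM after weekly and 31.3, 22.6 and 26.2 TPM after daily dosing, against 6.82, 9.03 and 8.37 TPM after vehicle. The log2 difference was -1.91 ± 0.12 (adjusted p = 0.000105), and the weekly libraries spread over less than 1 TPM. The 3 calls of this list held without each single library, and Tmem8c and Myog also without the third libraries (adjusted p = 0.046 each). Ncam1, a surface molecule of satellite cells and denervated fibres, differed by -1.31 without a call (adjusted p = 0.134), since weekly muscle spread over 1.89 to 8.49 TPM. Myf5, of activated satellite cells, differed by -0.26 (95% interval -0.60 to 0.08), and Myf6, of mature fibres, by 0.02 (-0.15 to 0.18). Pax7, which marks satellite cells, was under the filter, at 0.414 to 0.468 TPM in weekly, 0.492 to 0.805 TPM in daily and 0.470 to 0.681 TPM in vehicle muscle. The called genes closest to Myh3 over the 9 libraries, by Pearson's r of log2 values, were Tmem8c (0.998), Tnni1 (0.996), Tnnt2 (0.996), Myh8 (0.996) and Myog (0.996), a likeness that rests largely on the gap between daily and the other libraries.

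Acetylcholine receptor subunits were lower after weekly prednisone as well. Of 19 endplate and denervation genes tested, 5 were called lower (26.3%, against 0.857% of all genes tested) and 0 higher. They were Chrng, Chrna1, Chrnd, Chrnb1 and Myog, which is on the myogenic list too. Chrng passed the filter only through the daily libraries, and among the 17 members that did not 4 were lower, with a median of -0.11. Chrng, the fetal gamma subunit that adult endplates replace (chr1:87204657-87212694, beside Chrnd), had 0.151, 0.222 and 0.341 TPM after weekly, 6.28, 2.59 and 3.85 TPM after daily dosing and 0.06, 0.295 and 0.290 TPM after vehicle (log2 -2.02 ± 0.23, adjusted p = 0.00354). Chrna1, the ligand-binding alpha subunit of fetal and adult receptors, had 3.96, 2.88 and 3.25 TPM after weekly and 10.1, 8.34 and 8.88 TPM after daily dosing (log2 -1.22 ± 0.11, adjusted p = 0.00089). The daily values of both genes lay above all weekly and vehicle values. Weekly Chrna1 averaged 3.37 ± 0.548 TPM and vehicle 4.17 ± 0.222 TPM, with 2 of the 3 weekly libraries under every vehicle library. Chrne, the adult epsilon subunit, differed by -0.32 (95% interval -0.54 to -0.10) and was not called (adjusted p = 0.138).

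Chrnd (log2 -0.79, adjusted p = 0.0467) and Chrnb1 (log2 -0.32, adjusted p = 0.047) were borderline, each lost in 8 of the 9 fits that left out a library, all but the one without daily 2, with adjusted p up to 0.19 for Chrnd without daily 3 and 0.15 for Chrnb1 without weekly 3. Chrnb1 was an exception among the subunits, with 22.8, 21.4 and 21.9 TPM after weekly, 30.2, 26.4 and 26.9 TPM after daily dosing and 28.0, 26.1 and 28.5 TPM after vehicle, so that the weekly libraries were the ones apart. With 1 library left out 3 to 5 genes of the list were called lower.

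Adult fibre genes showed smaller differences. Of 10 slow-fibre genes, 4 were called lower after weekly prednisone (40%, against 0.857% of all genes tested) and 0 higher. Of the 4, Tnni1 and Tnnc1 belong to the embryonic programme already described. Tnnt1, slow troponin T, had 2.77, 6.69 and 4.97 TPM after weekly, 25.0, 16.0 and 19.2 TPM after daily dosing and 4.64 to 5.00 TPM after vehicle (log2 -1.90, adjusted p = 0.00659). Casq2, the calcium-binding protein of slow and cardiac muscle, averaged 7.15 ± 0.44 TPM after weekly and 19.4 ± 7.64 TPM after daily dosing (log2 -1.26, adjusted p = 0.0264), a call lost without daily 3 (0.113) or any weekly library. The slow light chains Myl2 (log2 0.18, 95% interval -0.10 to 0.47) and Myl3 (log2 0.33, -0.56 to 1.23) were not called, and slow myosin Myh7 stayed under 0.45 TPM in all 9 libraries.

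Among 17 fast-fibre genes 2 were called, both lower after weekly prednisone (11.8%, against 0.857% of all genes tested). Mylpf, the fast regulatory light chain and among the most abundant transcripts of the muscle, averaged 14020 ± 590 TPM after weekly, 18590 ± 372 TPM after daily dosing and 14860 ± 982 TPM after vehicle, a log2 difference of -0.41 (adjusted p = 0.0117). Myl1, the fast essential light chain, averaged 12420 ± 496 TPM after weekly and 15020 ± 240 TPM after daily dosing (log2 -0.27, adjusted p = 0.047). Mylpf was no longer called without daily 3 (0.0657) or weekly 3, and Myl1 without daily 3 (0.186), the other daily libraries, vehicle 3 or any weekly library. The fast myosins Myh4 (log2 -0.07, 95% interval -0.25 to 0.12), Myh1 (-0.25, -0.45 to -0.06) and Myh2 (0.16, -0.14 to 0.45) were not called. Among 19 transcription factors of fibre type 0 were called, but 17 had a positive difference, with a median of 0.20. Mafa, a large Maf factor of fast fibres, averaged 34.7 ± 1.21 TPM after weekly, 28.9 ± 1.52 TPM after daily dosing and 50.3 ± 2.01 TPM after vehicle (log2 0.26, adjusted p = 0.0631).

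Macrophage genes were lower after weekly prednisone in 7 of 29 tested markers (24.1%, against 0.857% of all genes tested) and higher in 0. The median log2 difference of the list was -0.69. Spp1, osteopontin, a secreted protein of macrophages in injured muscle (chr5:104435118-104441050), had 2.03, 2.30 and 1.95 TPM after weekly, 27.6, 17.0 and 20.98 TPM after daily dosing and 2.45, 1.30 and 2.09 TPM after vehicle (log2 -2.86 ± 0.18, adjusted p = 0.000105). Ctss, the lysosomal protease cathepsin S, had 11.2, 10.3 and 10.8 TPM after weekly and 66.1, 37.2 and 46.7 TPM after daily dosing (log2 -2.08 ± 0.19, adjusted p = 0.00107). Lyz2, lysozyme, had 108, 105 and 106 TPM after weekly and 315, 226 and 258 TPM after daily dosing (log2 -1.30 ± 0.14, adjusted p = 0.00354). Without the third libraries Ctss had an adjusted p of 0.127 and Lyz2 of 0.253. Weekly values of Ctss and Lyz2 were close to the vehicle means of 13.9 and 118 TPM.

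Trem2, a lipid-sensing receptor of macrophages (log2 -1.88, adjusted p = 0.00354), and Mpeg1, a pore-forming protein of phagocytes (log2 -1.90, adjusted p = 0.00354), were also called. Lgals3, galectin-3 (log2 -1.71, adjusted p = 0.0216), and Cybb, a subunit of the phagocyte oxidase (log2 -0.99, adjusted p = 0.0235), lost their calls without daily 3 (0.102 and 0.116) or any weekly library. General and resident markers were not called: Cd68 differed by -1.16 (adjusted p = 0.0565), Adgre1, the F4/80 antigen, by -0.64 (0.134), Csf1r by -0.38 (0.349) and the complement gene C1qa by -0.10 (95% interval -0.49 to 0.29). The resident markers Lyve1 (log2 0.35, adjusted p = 0.133) and Cd163 (log2 0.13, 0.669) were the 2 of 29 with a positive difference. The 29 markers, of which 20 had all weekly values under all daily ones (8.58% of all genes tested did), summed to 909 to 938 TPM in weekly, 1150 to 1490 TPM in daily and 914 to 1080 TPM in vehicle muscle. Leaving out a library gave 5 to 15 lower calls in this list, 15 of them without daily 2. Mmp12, the macrophage elastase, had 1.40, 1.34 and 1.29 TPM after weekly and 21, 4.96 and 9.65 TPM after daily dosing (log2 -2.25, adjusted p = 0.0228), a call lost without daily 3 (0.104) or any weekly library. Named after their values were seen, Spi1, the PU.1 factor of myeloid cells (log2 -1.0, adjusted p = 0.0308), the integrin Itgb2 (log2 -0.90, 0.0445) and the fungal receptor Clec7a (log2 -1.09, 0.013) were lower too, and lost their calls without daily 3 (0.0723 for Clec7a to 0.154 for Itgb2) and, for Spi1 and Itgb2, without daily 1, vehicle 3 or any weekly library.

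Extracellular matrix genes were lower after weekly prednisone in 5 of 37 members (13.5%, against 0.857% of all genes tested) and higher in 0. The median log2 difference of the list was -0.33. Tnc passed the filter only through the daily libraries, and the other 36 members had 4 lower calls. Postn, periostin, a matrix protein of healing tissue, had 4.06, 6.79 and 5.87 TPM after weekly, 47.6, 21.9 and 30.6 TPM after daily dosing and 4.92, 7.07 and 6.67 TPM after vehicle (log2 -2.34 ± 0.26, adjusted p = 0.00354, but 0.236 without the third libraries). The other 4 calls were Timp1, an inhibitor of matrix proteases (log2 -1.63, adjusted p = 0.029), Tnc, tenascin C (log2 -0.85, 0.0357), Col3a1, a fibrillar collagen (log2 -1.0, 0.0415), and Col8a1 (log2 -0.76, 0.0465). These 4 were lost without daily 3 (highest adjusted p 0.15, Col3a1), vehicle 3 or any weekly library, and Tnc, Col3a1 and Col8a1 also without daily 1. Tnc was lost without any vehicle library as well and Col8a1 without vehicle 2, so that 1 to 9 members were called across the fits that left out a library, 9 of them without daily 2. Col1a1 averaged 22.7 ± 1.42 TPM after weekly and 41.6 ± 11.4 TPM after daily dosing and was not called (log2 -0.82, adjusted p = 0.0633). Markers of fibro-adipogenic progenitors, the resident matrix-producing cells, summed to 1470 to 1730 TPM in weekly, 1250 to 1540 TPM in daily and 1350 to 1730 TPM in vehicle muscle. Of these 16 markers 1 was called higher after weekly prednisone (6.25%, against 0.915% of all genes tested) and 0 lower. The 37 matrix genes summed to 1330 to 1360 TPM in weekly, 1350 to 2040 TPM in daily and 1220 to 1550 TPM in vehicle muscle, so the weekly and daily sums overlapped for both lists. The part of macrophages and progenitors in the matrix differences was not tested.

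Of 19 listed proliferation genes 12 passed the filter, and 3 were called lower and 0 higher after weekly prednisone. All 3 passed the filter only through the daily libraries, so lower was the direction open to them, and 0 of the other 8 members were called, so the count is no support for a change of the list. Cdk1, the mitotic kinase, had 0.449, 0.615 and 0.684 TPM after weekly and 3.72, 1.68 and 2.19 TPM after daily dosing (log2 -1.12, adjusted p = 0.0247). Rrm2, which makes nucleotides for replication (log2 -0.90, adjusted p = 0.0116), and Birc5, survivin (log2 -0.87, adjusted p = 0.00953), lost their calls without daily 3 (0.0571 and 0.0656), and Cdk1 without daily 3 (0.102) or any weekly library. All 3 were below 1 TPM in every weekly and vehicle library, where the pseudocount of 1 holds differences down.

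Several growth, cytoskeletal and metabolic genes stood beside them. Igf2, an imprinted growth factor of developing and regenerating muscle, had 8.62, 10.2 and 10.3 TPM after weekly, 39.97, 22.2 and 29.0 TPM after daily dosing and 9.92, 11.7 and 10.97 TPM after vehicle (log2 -1.51 ± 0.18, adjusted p = 0.00413, but 0.272 without the third libraries). Tmsb10, a thymosin that binds actin monomers, averaged 146 ± 8.44 TPM after weekly and 395 ± 108 TPM after daily dosing (log2 -1.40, adjusted p = 0.00362). Among 13 tubulins and partners 2 were lower (15.4%, against 0.857% of all genes tested). They were Tubb2b (log2 -1.67, adjusted p = 0.00107), whose reads may be shared with its near-copy Tubb2a, and Tubb6 (log2 -1.35, adjusted p = 0.0132, lost without daily 3, weekly 1 or weekly 3, up to 0.0656). Gatm, the first enzyme of creatine synthesis, had 3.42, 3.45 and 3.58 TPM after weekly and 13.0, 8.91 and 9.43 TPM after daily dosing (log2 -1.34 ± 0.14, adjusted p = 0.0034). Gamt, the next enzyme of that pathway and named after its values were seen, averaged 30.9 ± 3.02 TPM after weekly and 49.99 ± 8.50 TPM after daily dosing (log2 -0.67, adjusted p = 0.0244, up to 0.0985 without weekly 3, and lost also without daily 3 or weekly 2).

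S100a4, a calcium-binding protein of motile cells, had 25.4, 22.7 and 21.2 TPM after weekly and 107, 55.4 and 78.6 TPM after daily dosing (log2 -1.71, adjusted p = 0.0106, lost without daily 3, 0.0643, or weekly 3). It was the single called gene among 23 annexins, S100 proteins and membrane repair genes. Mustn1, a nuclear protein of the musculoskeletal system, had 54.8, 48.1 and 50.7 TPM after weekly, 286, 99.1 and 169 TPM after daily dosing and 55.4, 108 and 75.4 TPM after vehicle (log2 -1.70, adjusted p = 0.047). That call was lost without daily 1, daily 3 (0.176), vehicle 1, vehicle 3 or any weekly library. Chosen after their values were seen, Nes, the intermediate filament nestin of immature fibres and endplates (log2 -0.84, adjusted p = 0.0042), Bex1 (log2 -0.51, 0.00354), Dclk1 (log2 -1.89, 0.000696) and C1qtnf3 (log2 -2.00, 0.000452) were lower and held without each single library, but not without the third libraries (0.0852 for C1qtnf3 to 0.282 for Nes and Bex1). C1qtnf3 and Dclk1 passed the filter only through the daily libraries.

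**Figure D4:**
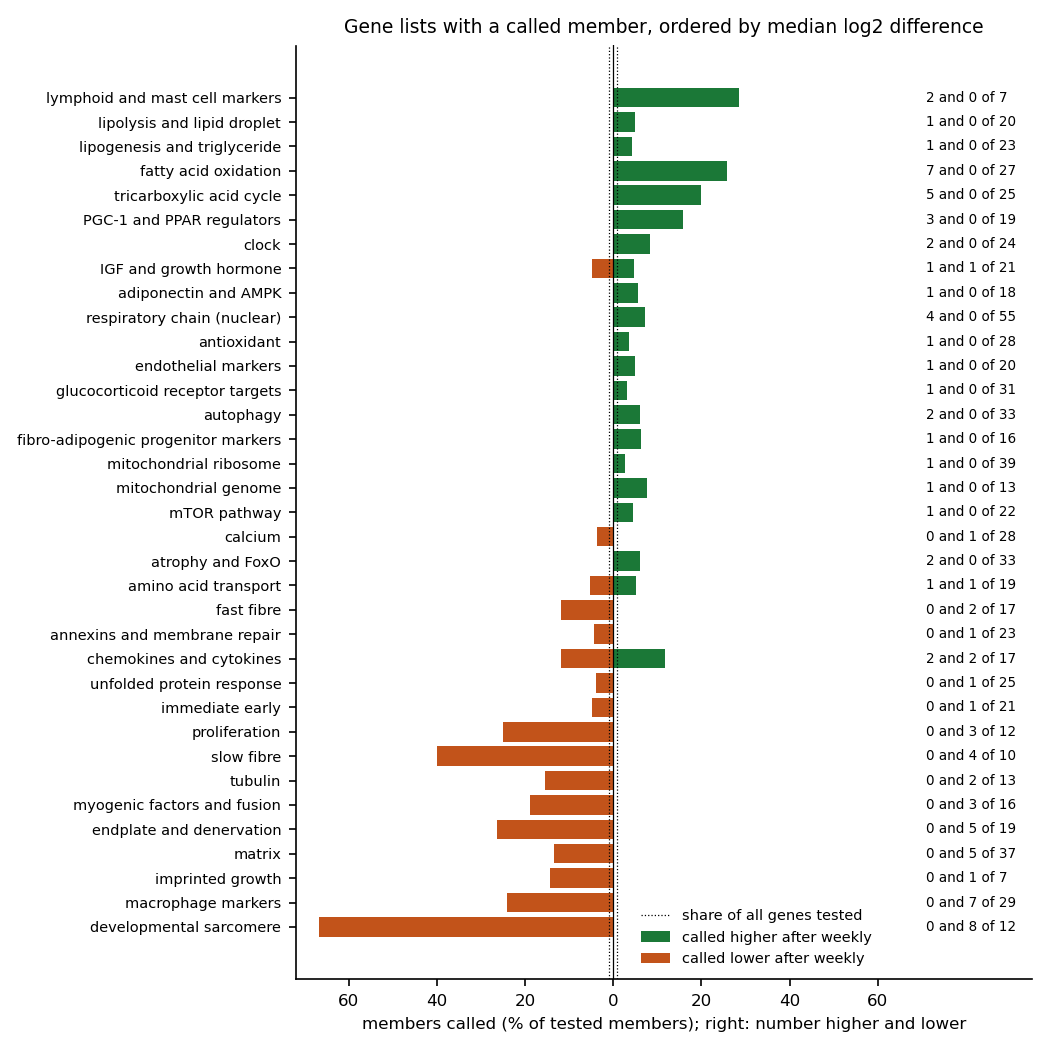
Share of tested members called (horizontal axis, %) in the 35 gene lists with at least 1 called member, ordered from the highest median log2 difference at the top; green bars to the right are higher and orange bars to the left lower after weekly prednisone, and dotted lines mark the shares over all genes tested, 0.915% and 0.857%. Embryonic sarcomere genes had the highest share lower (8 of 12) and fatty acid oxidation genes 7 of 27 higher.

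In the other direction, genes of fatty acid oxidation were higher after weekly prednisone. Of 27 members 25 had a positive difference, and the median log2 difference was 0.18. Calls numbered 7 higher (25.9%, against 0.915% of all genes tested) and 0 lower. Hadha and Hadhb, the alpha and beta subunits of the mitochondrial trifunctional protein, which carries out the last steps of each oxidation cycle, were both among them. Hadha had 218, 224 and 216 TPM after weekly, 172, 168 and 166 TPM after daily dosing and 222, 248 and 226 TPM after vehicle (log2 0.37 ± 0.05, adjusted p = 0.00964). Hadhb had 377, 407 and 363 TPM after weekly, 301, 280 and 292 TPM after daily dosing and 384, 432 and 383 TPM after vehicle (log2 0.39 ± 0.06, adjusted p = 0.0217). Daily muscle was under weekly and vehicle muscle in each library for both subunits.
These genes lie head to head on chromosome 5, with 272 bases between their RefSeq starts, and the stretch shown is the part of that gap that lies in the upstream windows of both, chr5:30155003-30155230 in GRCm38.p6, on the plus strand, the strand of Hadhb. It is printed because 1 stretch of sequence stands before a pair of genes that moved together, and it holds no CANNTG word on either strand.
Hadha-Hadhb: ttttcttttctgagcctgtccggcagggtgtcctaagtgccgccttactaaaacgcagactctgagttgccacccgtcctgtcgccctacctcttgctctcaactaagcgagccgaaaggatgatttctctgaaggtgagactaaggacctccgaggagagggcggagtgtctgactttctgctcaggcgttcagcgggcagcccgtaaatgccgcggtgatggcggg

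The other called members were Slc27a1, a fatty acid transporter of the plasma membrane (62.8 ± 1.85 TPM after weekly and 45.7 ± 3.23 TPM after daily dosing, log2 0.45, adjusted p = 0.0281), Acadvl and Acadm, the very-long-chain and medium-chain acyl-CoA dehydrogenases (log2 0.30 and 0.27, adjusted p = 0.0138 and 0.0482), Eci1 (log2 0.27, 0.0284) and Etfdh, which passes electrons to the respiratory chain (log2 0.25, 0.0415). Acadvl had 208, 214 and 208 TPM after weekly and 173, 174 and 165 TPM after daily dosing, with vehicle at 212 to 228 TPM. Cpt1b, the gate of mitochondrial fatty acid import, was not called (log2 0.17, 95% interval 0.06 to 0.28, adjusted p = 0.118), nor was Cd36 (log2 0.13, -0.05 to 0.31). The 27 genes summed to 5940 to 6180 TPM in weekly, 5090 to 5180 TPM in daily and 5780 to 6310 TPM in vehicle muscle. None of the 7 calls held without daily 3, where Hadha had 0.0656 and the others 0.0866 to 0.195, and 1 was left without any 1 of the weekly libraries. Without the third libraries the adjusted p was 0.409 for Hadha and 0.398 for Hadhb. With TMM scaling 5 were called, and Eci1 (0.0539) and Etfdh (0.073) were not.

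Enzymes of the tricarboxylic acid cycle and of pyruvate entry had a median of 0.16 and 23 positive differences. They were called higher in 5 of 25 members (20%, against 0.915% of all genes tested) and lower in 0. Ogdh, of the oxoglutarate dehydrogenase complex, had 244, 229 and 228 TPM after weekly and 181, 193 and 186 TPM after daily dosing (log2 0.32 ± 0.05, adjusted p = 0.0138). Sdha, the catalytic subunit of complex II (log2 0.26, adjusted p = 0.0193), Idh3g (log2 0.22, 0.0319) and Pdk2, a kinase that restrains pyruvate dehydrogenase (log2 0.24, 0.0415), were also among them. All 5 calls were lost without daily 3 (0.0847 for Ogdh and 0.171 for Pdk2) and without weekly 1, 2 were left without weekly 2 and 1 without weekly 3, and Idh3g and Pdk2 were also lost without daily 1 and vehicle 3. Idh3g was not called with TMM scaling (0.067).

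Nuclear genes of the respiratory chain leaned the same way by small amounts, with a median of 0.10. Of 55 genes 4 were called higher (7.27%, against 0.915% of all genes tested) and 0 lower. In 34 of the 55 the weekly values all lay above the daily ones, against 14.7% of all genes tested. Besides Sdha the calls were Cox6a2, the muscle form of a cytochrome oxidase subunit (1591 ± 46.6 TPM after weekly, 1361 ± 17.1 TPM after daily dosing, log2 0.22, adjusted p = 0.0435), Ndufv1 (log2 0.23, 0.0482) and Ndufa9 (log2 0.19, 0.0493). With TMM scaling 1 of the 4 was called, and none of them held without daily 3 (0.114 to 0.204), weekly 1 or weekly 3. Of the 13 protein-coding genes of the mitochondrial genome, mt-Atp6 was called (log2 0.35, adjusted p = 0.0493), and nuclear copies of mitochondrial sequence can share its reads. It was lost with TMM scaling (0.0558) and without daily 2, daily 3 (0.192), vehicle 1, vehicle 3 or any weekly library. Of 39 mitochondrial ribosomal genes 1 was called higher (2.56%, against 0.915% of all genes tested), Mrpl15 (log2 0.25, adjusted p = 0.0435). A single call does not describe either list. The call of Mrpl15 was lost with TMM scaling (0.089) and without any library but daily 2 (up to 0.186 without daily 3).

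Regulators of oxidative metabolism were higher in 3 of 19 members (15.8%, against 0.915% of all genes tested) and lower in 0, with a median of 0.15. Perm1, a muscle factor that works with PGC-1 and estrogen-related receptors, had 52.4, 43.3 and 49.5 TPM after weekly and 30.7, 37.3 and 32.8 TPM after daily dosing (log2 0.51 ± 0.10, adjusted p = 0.0442). Ppard, a fatty acid-activated nuclear receptor, averaged 12.2 ± 0.30 TPM after weekly and 9.27 ± 0.49 TPM after daily dosing (log2 0.37, adjusted p = 0.0217), and its partner Rxra 37.6 ± 1.99 TPM after weekly and 30.3 ± 0.66 TPM after daily dosing (log2 0.30, adjusted p = 0.0278). All 3 were lost without daily 1, daily 3 (0.115 to 0.176), weekly 1 or weekly 3, and Perm1 also with TMM scaling (0.0623). Ppargc1a, the coactivator PGC-1 alpha itself, had overlapping groups and was not called, with 4.96, 4.28 and 5.24 TPM after weekly and 4.46, 4.99 and 4.84 TPM after daily dosing (log2 0.01, 95% interval -0.19 to 0.21).

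Pink1, the kinase that marks damaged mitochondria for removal, had 356, 333 and 336 TPM after weekly, 262, 267 and 261 TPM after daily dosing and 408, 401 and 387 TPM after vehicle (log2 0.37 ± 0.04, adjusted p = 0.00354), a call that held without each single library but not without the third libraries (0.282). Ulk1, the kinase that starts autophagy, was the other called gene among 33 of that list (log2 0.44, adjusted p = 0.0247, lost without daily 1, daily 3, weekly 1 or weekly 3, up to 0.128). The 2 calls are 6.06% of that list, against 0.915% of all genes tested. Plin5, which ties lipid droplets to mitochondria in oxidative tissue (log2 0.37, adjusted p = 0.0116), and Sod2, the mitochondrial superoxide dismutase (log2 0.27, adjusted p = 0.0235), were the called members of the lipolysis and antioxidant lists, 1 of 20 and 1 of 28 (5% and 3.57%, against 0.915% of all genes tested). They were lost without daily 3 (0.0723 and 0.128) and weekly 3, and Sod2 also without daily 1 or the other weekly libraries.

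**Figure D5:**
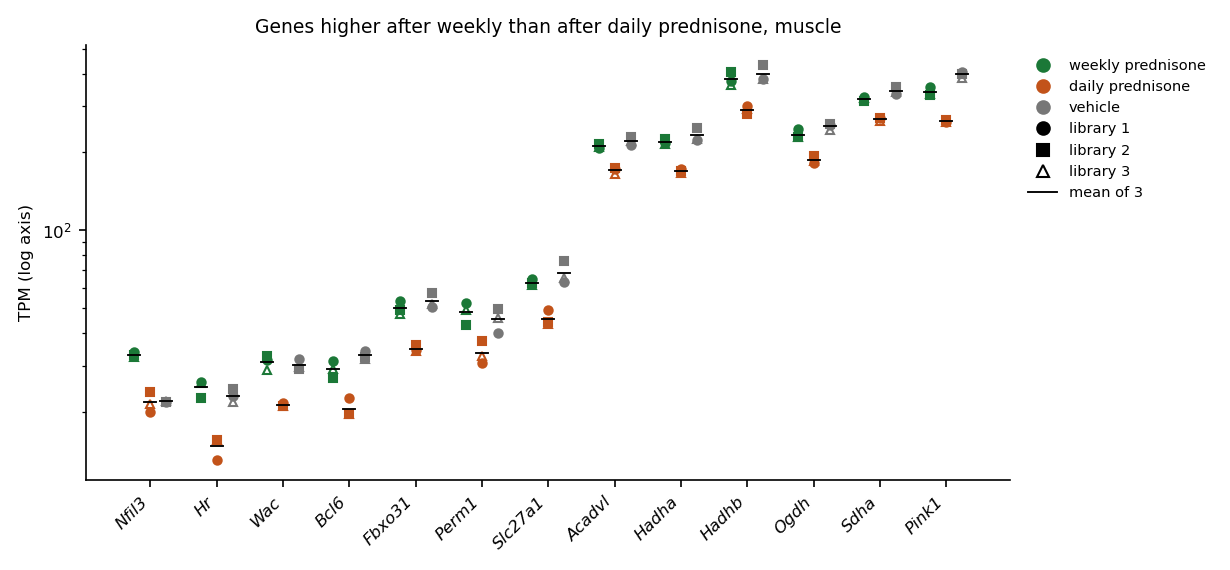
TPM (vertical, log axis) of 13 genes higher after weekly prednisone in each library, weekly at left in green, daily in orange and vehicle in grey, with bars at the mean of 3. The daily points lie under the weekly points in all 13 genes, and in Nfil3 the vehicle points lie with the daily ones.

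Nfil3, a transcriptional repressor tied to the circadian clock (chr13:52967209-52981073), was a gene in which weekly muscle stood apart. It had 33.8, 32.9 and 32.4 TPM after weekly, 19.9, 23.9 and 21.4 TPM after daily dosing and 21.9, 21.7 and 22.1 TPM after vehicle. The log2 difference was 0.59 ± 0.07 (adjusted p = 0.00354) and held without each single library, though not without the third libraries (0.282). Among 24 clock genes the other call was Usp2, a rhythmic deubiquitinase, with 40.8, 41.1 and 43.9 TPM after weekly, 32.2, 33.5 and 33.3 TPM after daily dosing and 45.5, 47.3 and 43.0 TPM after vehicle (log2 0.34, adjusted p = 0.0216, lost without daily 1, daily 3 or any weekly library, up to 0.102). In Usp2 it was daily muscle that lay apart. The 2 calls are 8.33% of the clock genes, against 0.915% of all genes tested. The core factor Arntl differed by 0.45 (95% interval 0.17 to 0.73, adjusted p = 0.112) and the output factor Dbp by -0.43 (-0.79 to -0.08, adjusted p = 0.197).

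Cyp26b1, a retinoic acid-degrading enzyme (chr6:84571414-84593908), had the largest difference among the higher genes and was chosen after its values were seen, since its mean was under the 5 TPM set for naming. It had 4.72, 4.21 and 4.96 TPM after weekly, 0.666, 0.784 and 0.669 TPM after daily dosing and 0.835, 1.67 and 1.21 TPM after vehicle (log2 1.72 ± 0.14, adjusted p = 0.000486). Weekly values were far over those of both other regimens, and the call held without each single library (up to 0.00591 without daily 3). Cyp26b1 passed the expression filter only through the weekly libraries, so higher was the direction open to it. Without the third libraries its adjusted p was 0.124.

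Among the largest higher genes by rule, Hr, a corepressor of nuclear receptors, had 26.0, 22.5 and 25.8 TPM after weekly, 13.0, 15.6 and 15.5 TPM after daily dosing and 22.9, 24.5 and 21.7 TPM after vehicle (log2 0.72 ± 0.09, adjusted p = 0.00536). Wac, an adaptor in histone ubiquitination, had 31.7, 32.8 and 29.0 TPM after weekly and 21.6, 21.03 and 20.96 TPM after daily dosing (log2 0.53 ± 0.06, adjusted p = 0.00362), and both calls held without each single library. Without the third libraries they did not, with 0.273 for Hr and 0.19 for Wac. Pitpnc1, a lipid transfer protein (log2 0.67, adjusted p = 0.013), Osgin1, an oxidative stress gene (log2 0.65, 0.0134), Car2, a carbonic anhydrase (log2 0.54, 0.0116), Tfrc, the transferrin receptor that brings in iron (log2 0.51, 0.016), and Crhr2, the urocortin receptor of muscle (log2 0.50, 0.0101), had vehicle means near the weekly ones. Without daily 3 these 5 had an adjusted p of 0.0656 to 0.0863, and they were lost also without weekly 1 (Pitpnc1, Osgin1, Tfrc) or weekly 3 (Pitpnc1, Tfrc, Crhr2). Egln3, an oxygen-sensing prolyl hydroxylase, was higher (log2 0.57, adjusted p = 0.0225, lost without daily 3, 0.116, or weekly 3), as were, chosen after their values were seen, its relative Egln1 (log2 0.42, 0.00953) and the hypoxia factor Epas1 (log2 0.39, 0.0134), both lost without daily 3 (0.0656 and 0.0847) and Epas1 also without weekly 1.

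The remaining genes named by rule, Cbfa2t3, Klhl33, Ung, Crispld2, Slc25a29 and Dpep1, differed by 0.46 to 0.58 with adjusted p of 0.0224 to 0.0445. Each was lost without daily 3 and weekly 3, and all but Dpep1 without weekly 1, with adjusted p up to 0.167 (Slc25a29 without daily 3). Ung (0.0566) and Slc25a29 (0.0648) were not called with TMM scaling. Dpep1, a dipeptidase that cleaves leukotriene D4, had 18.1, 21.1 and 19.8 TPM after weekly, 15.1, 13.5 and 13.3 TPM after daily dosing and 14.6, 15.7 and 15.9 TPM after vehicle, so that here too weekly muscle was above both.

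In all, 16 called genes had daily values that overlapped vehicle and weekly values that did not, 7 higher and 9 lower after weekly prednisone. They are 7.37% of the called genes, against 9.73% of all genes tested, so the pattern was not more frequent among the calls. Besides Nfil3, Dpep1 and Cbfa2t3 the higher ones were Ccl11, an eosinophil-attracting chemokine (34.1 ± 1.02 TPM after weekly, 26.2 ± 1.37 TPM after daily dosing and 26.4 ± 2.36 TPM after vehicle, adjusted p = 0.0415), Slc38a3, a glutamine transporter (14.9 ± 0.31, 11.1 ± 1.25 and 10.3 ± 0.43 TPM, adjusted p = 0.0415), Podxl (log2 0.43, 0.0261) and the pseudogene Rps13-ps1, whose reads can come from its parent. Rps13-ps1 passed the filter only through the weekly libraries, so higher was the direction open to it. Ccl11 and Slc38a3 were lost without daily 3 (0.176 each), daily 2, vehicle 3 or any weekly library. Among the lower ones were Mustn1, Chrnb1, the cytoplasmic actin Actg1 (217 ± 4.30 TPM after weekly, 276 ± 24.9 TPM after daily dosing and 282 ± 20.1 TPM after vehicle, adjusted p = 0.0493) and the chemokine Cxcl16 (log2 -0.75, 0.0445). For Mustn1 and Cxcl16 the vehicle mean was still nearer to the weekly mean. Their log2 differences from vehicle were -0.58 and -0.28 for weekly, and 1.125 and 0.47 for daily muscle. Podxl, Actg1 and Cxcl16 were lost without daily 3 (0.131, 0.155 and 0.175) or any weekly library.

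At 24 hours after the final dose, 1 of 31 known glucocorticoid receptor targets was called between the regimens, Bcl6, a transcriptional repressor (31.2, 26.9 and 29.2 TPM after weekly and 22.5, 19.5 and 19.6 TPM after daily dosing, log2 0.48, adjusted p = 0.0192, lost without daily 3, 0.102, weekly 1 or weekly 3), and the median log2 difference of the list was 0.07. The 1 call is 3.23% of the list, against 0.915% of all genes tested that were called higher. Fkbp5, a receptor co-chaperone and sensitive target, had 10.4, 12.4 and 11.3 TPM after weekly, 8.92, 13.2 and 9.87 TPM after daily dosing and 7.10, 7.29 and 7.12 TPM after vehicle. Its log2 difference was 0.10 (95% interval -0.18 to 0.38), and the groups overlapped, while each prednisone library was over each vehicle library. Tsc22d3, GILZ, differed by 0.02 (-0.11 to 0.14) and Per1 by -0.09 (-0.49 to 0.31). Zbtb16 (log2 0.65, 0.30 to 1.00, adjusted p = 0.0737), Klf15 (0.47, 0.19 to 0.75, 0.0968) and Klf9 (0.34, 0.16 to 0.52, 0.0737) had intervals above 0 without a call. Nr3c1, the receptor, differed by 0.27 (0.10 to 0.43, adjusted p = 0.109), and 0 of 17 genes of the receptor and its chaperones were called. Mt2, a metallothionein, had 14.3, 20.3 and 15.8 TPM after weekly and 53.0, 24.4 and 36.4 TPM after daily dosing without a call (log2 -1.07, adjusted p = 0.0738).

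Of 33 genes of muscle wasting tested, 2 were called higher after weekly prednisone (6.06%, against 0.915% of all genes tested) and 0 lower. Fbxo31, an F-box protein of ubiquitin ligases, had 53.1, 49.4 and 47.5 TPM after weekly, 34.6, 36.0 and 34.1 TPM after daily dosing and 50.8, 57.3 and 51.9 TPM after vehicle (log2 0.50 ± 0.06, adjusted p = 0.00659, 0.0507 without daily 3). Foxo4, a FoxO factor, differed by 0.31 (adjusted p = 0.0453), a call lost with TMM scaling (0.0914) and in 8 of the 9 fits that left out a library, all but the one without daily 2 (up to 0.156 without weekly 3). The ubiquitin ligase Trim63, MuRF1, had 188, 184 and 188 TPM after weekly, 204, 184 and 188 TPM after daily dosing and 133, 145 and 137 TPM after vehicle (log2 -0.03, 95% interval -0.15 to 0.08), so that each prednisone library lay above each vehicle library. Fbxo32, atrogin-1, differed by 0.26 (-0.07 to 0.60), and Mstn, myostatin, by -0.01 (-0.30 to 0.28). Foxo1 (0.15, -0.04 to 0.34) and Foxo3 (0.02, -0.16 to 0.20) were not called.

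Some metabolic genes of the panel were not called. Pdk4 differed by 0.11 (95% interval -0.32 to 0.54), Slc2a4, the insulin-responsive glucose transporter, by 0.12 (-0.02 to 0.26), Adipor1 by 0.10 (-0.02 to 0.22), Nampt by 0.11 (-0.06 to 0.29) and Igf1 by -0.23 (-0.50 to 0.05). Stat5b, which carries the growth hormone signal, was higher (48.7 ± 2.34 TPM after weekly and 36.0 ± 1.79 TPM after daily dosing, log2 0.42, adjusted p = 0.0192, lost without daily 3, 0.102, weekly 1 or weekly 3). Slc7a5, the leucine carrier, was lower, and passed the filter only through the daily libraries, with 1.15, 0.962 and 1.03 TPM after weekly and 2.04, 1.97 and 2.02 TPM after daily dosing (log2 -0.56, adjusted p = 0.0224, lost without daily 1, daily 3, 0.119, or any weekly library).

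Of 7 lymphoid, granulocyte and mast cell markers above the filter, 2 were called higher (28.6%, against 0.915% of all genes tested), both mast cell proteases. Mcpt4, a chymase, had 8.65, 11.7 and 10.2 TPM after weekly, 6.48, 5.62 and 6.28 TPM after daily dosing and 10.1, 11.9 and 9.67 TPM after vehicle (log2 0.64, adjusted p = 0.0285). Tpsb2, a tryptase, had 8.87, 7.61 and 7.21 TPM after weekly, 6.16, 4.90 and 4.59 TPM after daily dosing and 9.87, 9.77 and 8.89 TPM after vehicle (log2 0.52, adjusted p = 0.0499). Both lost the call without daily 3 (0.122 and 0.193), daily 2, weekly 2 or weekly 3, Mcpt4 also without daily 1, and Tpsb2 also without weekly 1 or any vehicle library. Cpa3 (log2 0.42, adjusted p = 0.127) and Cma1 (log2 0.43, 0.175), the other mast cell proteases listed, were positive without a call.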

How the data were processed

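Poly(A) RNA of quadriceps was sequenced from stranded libraries, per the labels' protocols. The authors deposited transcript abundances in TPM, which the submitters' processing notes tie to kallisto, with Trimmomatic, HISAT2 and the mouse build mm10 also named and no versions given. TPM is scaled to a fixed sum in each library, so a large change in a few abundant transcripts moves all others, and read depth is not recoverable. Transcript TPM were summed by gene symbol, and 12246 of 33641 genes that reached 1 TPM in 3 or more of the 9 muscle libraries were kept. The 105129 transcripts matched GENCODE M21 by identifier for 98.7%.

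Differences are weekly minus daily prednisone in log2(TPM + 1), which understates changes of low genes, from limma 3.58.1 in R 4.3.3 with all 9 libraries, a mean-variance trend, 6 residual degrees of freedom and Benjamini-Hochberg adjustment over all genes. All adjusted p-values are from this two-sided test, calls are at an adjusted p under 0.05, ± after a log2 difference is its SE, and intervals are 95%. TMM scaling, an alternative, divides each library by a trimmed mean of its log ratios to a common library. Named genes were the 20 called genes in each direction with the largest difference and a mean of at least 5 TPM, called members of the gene lists and a panel of glucocorticoid and metabolic genes. The members and lists were chosen with earlier results of these data known. Alternatives changed the filter, pseudocount, scaling, weights, libraries and replicate block. The values of 1 gene that this rule names are not reported here.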

Additional observations from a re-analysis of the deposited data

How the results depend on the processing

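Of the 158 genes followed across alternatives, 115 were called, and 0 of these changed direction under any of them. The 217 calls, 112 higher and 105 lower, became 203 with TMM scaling (73 higher), 152 without a filter (61 higher), 210 with a filter at 5 TPM (139 higher, 71 lower), 115 without the mean-variance trend (38 higher) and 78 with the weekly and daily libraries alone (27 higher, 51 lower, on 4 residual degrees of freedom). Over transcripts in place of genes 80 were called (30 higher, 50 lower). With array weights 4159 were called (2900 higher, 1259 lower), but the estimate of the weights did not converge. Leaving out 1 library gave 37 to 282 calls, 7 to 110 higher and 30 to 172 lower, and leaving out the third of each group gave 10 (1 higher, 9 lower). A replicate block gave 100 calls (40 higher, 60 lower). The numbers did not pair the libraries: deviations of same-numbered weekly and daily libraries correlated at -0.0859, -0.1197 and -0.0329, and 0 of 6 libraries correlated best with their own number. The cause of these changes was not tested. Uncalled genes that changed sign are given with their range without 1 library: Fkbp5 (-0.0088 to 0.248), Foxo3 (-0.0238 to 0.0489, and -0.00285 with TMM scaling), Mstn (-0.13 to 0.0994, and 0.0138 without the third libraries), Myh4 (-0.123 to -0.0049, and 0.0975 with quantile normalization), Per1 (-0.229 to 0.0422), Ppargc1a (-0.0367 to 0.0831, -0.0129 with TMM scaling and -0.026 without the third libraries), Trim63 (-0.0653 to 0.0092) and Tsc22d3 (-0.0156 to 0.0546, -0.0145 with TMM scaling and -0.00476 with quantile normalization). Depth is unknown, so counting error of low genes could not be separated from the spread between libraries.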

Other observations

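Of 51 gene lists, 16 held no called gene. Ribosomal protein genes had a median log2 difference of -0.11 over 47 members, with 42 negative and 0 called. In 12 of the 47 all weekly values lay under all daily ones, which 8.58% of all genes tested did. Adipocyte markers had a median of 0.28 over 13 members, all positive, and 0 had weekly and daily values apart, since the daily libraries spread over their range.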
